A study of Mus musculus with 6 samples.

Results

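Genes of glutathione synthesis, recycling and the glutathione peroxidase family were followed across control, paraquat (PQ) and N-acetylcysteine (NAC) treated neural stem and progenitor cells (NSPCs). The 10 genes were taken by name, Slc7a11, Gclc, Gclm, Gss, Gsr, Gpx1, Gpx4, Gpx8, Ggt7 and Glrx, and each was matched to its NCBI gene identifier. They are 10 of the 17254 genes listed in any library, and all 10 were among the 11717 genes with a mean FPKM (fragments scaled by transcript length and library size) of at least 1, which were tested. RNA-seq was performed on 6 libraries after 48 h, 2 per group. The control libraries are labelled control, and the paper describes its controls as mock-treated. The PQ libraries received PQ, a redox-cycling compound that produces superoxide (5 µM in the label of PQ replicate 1 and in the RNA-seq methods). The NAC libraries received NAC, a thiol antioxidant and cysteine donor (5 mM in the methods). The cells are an immortalised culture from neonatal mouse subventricular zone that lacks Ink/Arf, and the controls share that loss. It is a mixed population, so fewer cells of a type and less RNA per cell cannot be told apart in these bulk values. The genotype (written Ink/Ark knockout) and the strain C57BL/6 are labelled for control replicate 1 and PQ replicate 1 alone. The labels name Illumina sequencing for these libraries and BGISEQ-500 for the other 4, and both NAC libraries are among the latter. The RNA-seq methods give an Illumina instrument alone, which differs from the BGISEQ-500 labels, and the platform used below is that of the labels. Expected counts summed to 9849392 and 10040827 for control, 10388731 and 9680436 for PQ, and 10698241 and 9907726 for NAC. Nothing in the labels says that the libraries are separate cultures. The replication entry of the paper's reporting summary gives RNA sequencing as replicated 2 times and does not name separate cultures. The p-values therefore measure only the spread between these samples, which may be technical.

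Glutathione is a tripeptide of glutamate, cysteine and glycine that serves as the main thiol reductant of the cell. Cystine enters through the exchanger of which SLC7A11 is the transport subunit, glutamate-cysteine ligase (catalytic subunit GCLC, modifier subunit GCLM) and glutathione synthetase (GSS) join the amino acids, and peroxidases spend the product, which glutathione reductase (GSR) restores with NADPH. Several of these genes are known targets of the transcription factor NRF2, and Slc7a11 is also a known target of ATF4.

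On the FPKM scale, which allows levels to be compared between genes, Gpx4 stood highest and Ggt7 lowest. Mean FPKM over the 6 libraries was 292.1 for Gpx4, 164.9 for Slc7a11, 87.1 for Gpx1, 49.1 for Gpx8, 42.6 for Gclc, 28.5 for Gsr, 27.5 for Gclm, 25.7 for Glrx, 10.6 for Gss and 4.1 for Ggt7. Gpx4 lay at the percentile 98.2 of all genes tested and Ggt7 at 18.8. The lowest Gpx4 library (266.87 FPKM) lay above the highest Slc7a11 library (179.14), and the lowest Slc7a11 library (146.9) above the highest Gpx1 library (125.4). The ranges of Gsr (24.0 to 31.28), Gclm (22.89 to 32.11) and Glrx (21.9 to 28.03) overlapped, and their order differed between libraries, so these neighbours did not differ beyond their spread. Gpx8 (40.47 to 58.53) lay above Gclc (32.65 to 54.77) in each of the 6 libraries, although their ranges over all treatments overlapped. The FPKM of Gclc was 1.61 and 1.66 times that of Gclm for control, 1.52 and 1.71 times in PQ, and 1.33 and 1.43 times in NAC.

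**Figure D1:**
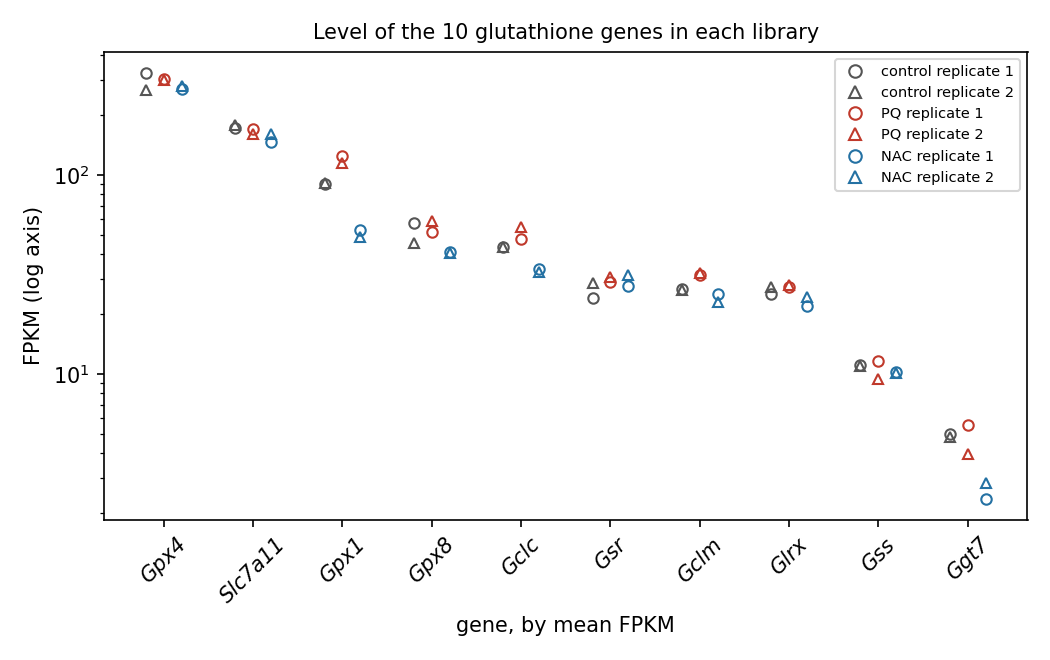
FPKM of the 10 genes in each of the 6 libraries on a log axis, ordered by mean FPKM, with colour for the treatment and symbol for the replicate. Gpx4 (mean 292.1) stood highest and Ggt7 (mean 4.1) lowest, and Gpx1 spread over the widest interval among the abundant genes, from 48.54 in NAC to 125.4 in PQ.

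Differences between groups were tested with edgeR's quasi-likelihood test on counts, and a gene was called at a Benjamini-Hochberg adjusted p under 0.05 over all 11717 genes. In PQ against control 1 of the 10 genes was called, Gpx1, which was higher. Of all genes tested 19.2% were called in this comparison, 9.76% higher and 9.45% lower, and nothing is read from 1 of 10 beside that share. In NAC against control 4 of 10 were called, all lower (Gclc, Gpx1, Gpx8 and Ggt7), beside 18.7% of all genes, 9.01% higher and 9.64% lower. In PQ against NAC 5 of 10 were called, all higher in PQ (Gclc, Gclm, Gpx1, Gpx8 and Ggt7), beside 31.6% of all genes, 16.0% higher and 15.7% lower. The median log2 fold change of the 10 genes was 0.06, -0.24 and 0.35 in these comparisons, and that of all genes tested was -0.001, -0.002 and 0.0004. The comparisons against control share the control libraries, and each shares a group with PQ against NAC. Without PQ replicate 1 no gene of the 10 was called in PQ against control by edgeR (2 had an unadjusted p under 0.05), and 866 rather than 2250 of all genes were. Without NAC replicate 2, 3 rather than 5 were called in PQ against NAC. Over all genes, NAC against control fell from 2186 calls to 1286 and 1427 without NAC replicate 1 or 2, and PQ against NAC from 3708 to 2343 without PQ replicate 1 and to 2407 without NAC replicate 1.

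**Figure D2:**
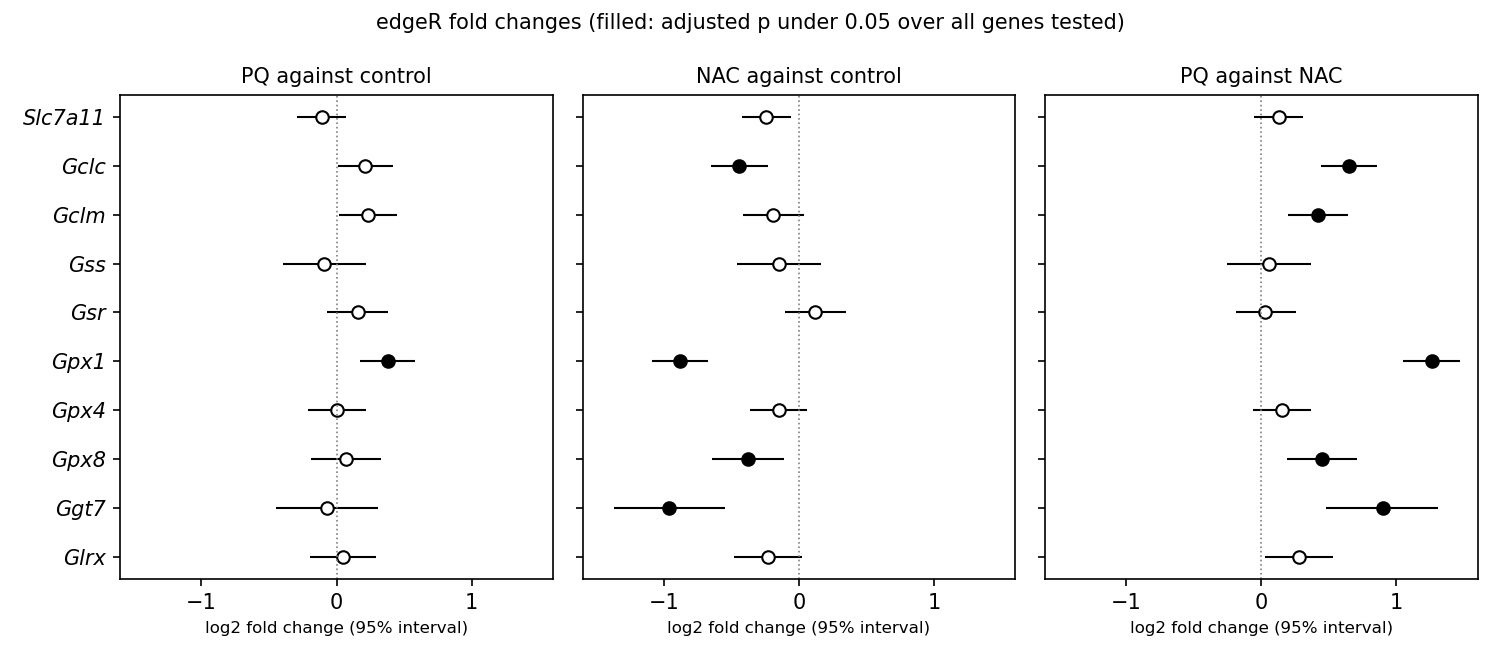
Log2 fold changes of the 10 genes (points) with 95% intervals (lines) from edgeR in the 3 comparisons, filled where the adjusted p was under 0.05 over all genes tested. In PQ against control Gpx1 alone is filled (0.38), in NAC against control 4 genes are filled and lie below 0, and in PQ against NAC 5 genes are filled and lie above 0.

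Cystine import was represented by Slc7a11 (NCBI gene 26570). Its normalised counts (CPM, a share of each library's total, scaled by edgeR's TMM factors) were 1648.8 and 1697.3 in control, 1575.2 and 1522.7 in PQ, and 1362.3 and 1468.3 in NAC. Both PQ libraries lay below both control libraries, and both NAC libraries lay below both PQ libraries, but the steps were small. The log2 fold change was -0.11 in PQ against control (95% interval -0.29 to 0.07) and -0.24 in NAC against control (-0.42 to -0.06), neither called (adjusted p = 0.41 and 0.056 by edgeR's quasi-likelihood test). DESeq2 and the edgeR fit with no filter on low values put the NAC difference past the threshold, each at an adjusted p of 0.035, within a range of 0.035 to 0.34 over the alternatives. No library gave Slc7a11 a whole expected count, a sign of reads split with other loci, so its level is uncertain. The other 9 genes had whole counts throughout.

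The heavy chain that pairs with SLC7A11 at the membrane, encoded by Slc3a2, moved further. Slc3a2 had 441.0 and 285.2 CPM in control, 184.4 and 177.7 in PQ, and 164.7 and 193.0 in NAC. All 4 treated libraries lay below both control libraries, and the control libraries lay apart from each other. The log2 fold change was -1.0 in PQ (SE 0.14, adjusted p = 0.0001 by edgeR's quasi-likelihood test) and -1.02 in NAC (SE 0.14, adjusted p = 4.4e-05), both against control. Without control replicate 1 these were -0.66 and -0.67, still called (adjusted p up to 0.0098 and 0.0079 over the alternatives). Within the Illumina-labelled pair PQ minus control was -1.26 on the log2 scale, and within the BGISEQ-500 libraries it was -0.68 for PQ and -0.68 for NAC. On the FPKM scale Slc7a11 was 1.03 and 1.65 times Slc3a2 in control, 2.36 and 2.38 times in PQ, and 2.29 and 2.1 times in NAC.

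The Slc7a11 and Gclm starts are shown because 3 short motifs were searched in the windows of the members: TGACNNNGC, the core of the antioxidant response element bound by NRF2, TGATGNAA, a form of the composite element bound by ATF4, and GTAAACA, a forkhead motif. The windows hold 250 bases before and 50 after each annotated start (RefSeq, GRCm38.p6), and both strands were searched. Windows were found for 8 of the 10 genes, 12 windows in all because Gpx4 and Glrx have several starts, and none for Gclc and Gsr. Of 32851 windows of all genes, 12.4% held TGACNNNGC, 3.97% TGATGNAA and 3.65% GTAAACA. Slc7a11 (chr3:50443564-50443863, minus strand) held TGATGNAA on the gene strand at bases -66 to -59 and on the other strand at -47 to -40, counted from the start, and GTAAACA on the other strand at -232 to -226. Gclm (chr3:122245307-122245606, plus strand) held TGACNNNGC on the other strand at -134 to -126. The window of Gpx1 (chr9:108338830-108339129, plus strand), the gene with the largest difference between PQ and NAC among the 10, held none of the 3. Capitals mark the matches, which did not overlap each other and which are matches of letters and not measured binding.
Slc7a11: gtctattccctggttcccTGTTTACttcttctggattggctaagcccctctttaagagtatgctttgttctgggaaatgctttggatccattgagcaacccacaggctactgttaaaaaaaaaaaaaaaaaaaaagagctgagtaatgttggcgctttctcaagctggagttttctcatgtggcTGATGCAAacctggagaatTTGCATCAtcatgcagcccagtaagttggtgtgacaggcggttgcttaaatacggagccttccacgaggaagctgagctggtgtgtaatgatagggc
Gclm: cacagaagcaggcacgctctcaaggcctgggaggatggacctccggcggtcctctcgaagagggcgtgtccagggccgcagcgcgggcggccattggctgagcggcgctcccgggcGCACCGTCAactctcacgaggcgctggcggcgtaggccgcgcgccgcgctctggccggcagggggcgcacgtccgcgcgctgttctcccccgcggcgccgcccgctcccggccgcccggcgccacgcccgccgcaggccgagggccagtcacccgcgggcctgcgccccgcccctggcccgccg
Gpx1: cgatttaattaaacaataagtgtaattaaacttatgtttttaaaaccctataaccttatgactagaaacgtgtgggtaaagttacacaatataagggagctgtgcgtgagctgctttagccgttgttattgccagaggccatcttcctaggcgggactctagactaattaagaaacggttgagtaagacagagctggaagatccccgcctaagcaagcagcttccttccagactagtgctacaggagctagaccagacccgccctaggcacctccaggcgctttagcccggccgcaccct

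Among the synthesis genes, both subunits of glutamate-cysteine ligase were highest in PQ and lowest in NAC, whereas glutathione synthetase was not called in any comparison. Gclc (NCBI gene 14629), the catalytic subunit, had 153.5 and 153.4 CPM in control, 164.5 and 191.6 in PQ, and 115.4 and 111.0 in NAC. The 3 groups did not overlap. Gclc fell in NAC against control, by a log2 fold change of -0.44 (SE 0.10, adjusted p = 0.0039 by edgeR's quasi-likelihood test), and was 1.57-fold higher in PQ than in NAC (adjusted p = 5.7e-05). Against control, PQ gave 0.21 (95% interval 0.01 to 0.42), which did not pass over all genes (adjusted p = 0.14). PQ minus control was 0.10 within the Illumina-labelled pair and 0.32 within the BGISEQ-500 pair, and NAC minus control was -0.44 within BGISEQ-500.

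Gclm (NCBI gene 14630), the modifier subunit, had 56.9 and 55.2 CPM in control, 64.7 and 67.1 in PQ, and 52.0 and 46.5 in NAC. Again the 3 groups did not overlap. It was called in PQ against NAC, with a log2 fold change of 0.42 (SE 0.10, adjusted p = 0.0045 by edgeR's quasi-likelihood test), a call that was lost without NAC replicate 2 (0.34, adjusted p = 0.068, in a range of 0.0016 to 0.068 over the alternatives). Against control the differences were 0.23 in PQ (95% interval 0.02 to 0.45) and -0.19 in NAC (-0.41 to 0.04), neither called. PQ minus control was 0.18 within the Illumina-labelled pair and 0.28 within the BGISEQ-500 pair.

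Gss (NCBI gene 14854), the enzyme of the last step, had 20.9 and 20.5 CPM in control, 21.3 and 17.5 in PQ, and 18.8 and 18.5 in NAC. The PQ libraries lay on both sides of the other groups. Its log2 fold change was -0.09 in PQ (95% interval -0.40 to 0.22) and -0.15 in NAC (-0.46 to 0.16), both against control. PQ minus control was 0.03 within the Illumina-labelled pair and -0.22 within the BGISEQ-500 pair, of opposite sign. Gsr (NCBI gene 14782), the recycling enzyme, had 66.4 and 78.1 CPM in control, 77.5 and 83.6 in PQ, and 74.6 and 82.9 in NAC. All 3 groups overlapped, with control replicate 1 lowest. The log2 fold change was 0.16 in PQ (-0.07 to 0.38) and 0.12 in NAC (-0.10 to 0.35), but 0.04 and 0.01 without control replicate 1, and neither gene was called in any comparison.

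**Figure D3:**
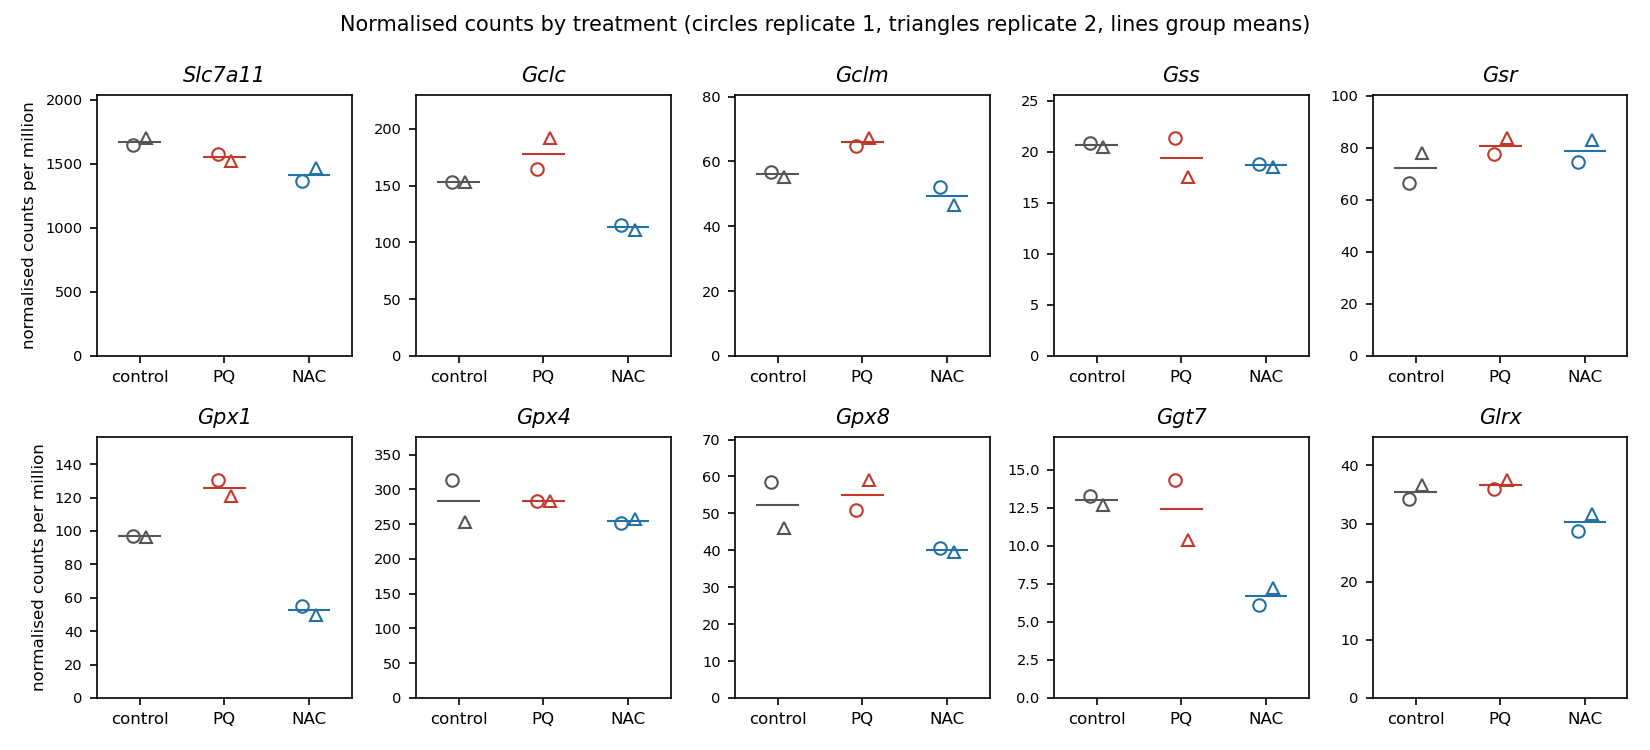
Normalised counts (CPM) of each gene by treatment, with circles for replicate 1, triangles for replicate 2, lines for group means and every axis starting at 0. Gpx1 separates the groups furthest, with 130.2 and 121.0 in PQ, 97.0 and 96.5 in control, and 55.1 and 49.9 in NAC.

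Of the peroxidases, Gpx1 changed in every comparison, Gpx8 was called only in those that involve NAC, and Gpx4 was not called. Gpx1 (NCBI gene 14775), the cytosolic and mitochondrial selenoenzyme that reduces hydrogen peroxide, had 97.0 and 96.5 CPM in control, 130.2 and 121.0 in PQ, and 55.1 and 49.9 in NAC. The group means were 96.8 ± 0.361, 125.6 ± 6.45 and 52.5 ± 3.65 (SD, n = 2), and the groups did not overlap. Gpx1 was 1.30-fold higher in PQ than in control (log2 fold change 0.38, SE 0.10, adjusted p = 0.01 by edgeR's quasi-likelihood test). It fell in NAC against control, by a log2 fold change of -0.88 (SE 0.10, adjusted p = 5.1e-06), and was 2.39-fold higher in PQ than in NAC (adjusted p = 4.5e-08). The call in PQ against control was lost without PQ replicate 1 (0.32, adjusted p = 0.14, in a range of 0.0055 to 0.14 over the alternatives). PQ minus control was 0.42 within the Illumina-labelled pair and 0.33 within the BGISEQ-500 pair, and NAC minus control was -0.88 within BGISEQ-500.

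Gpx4 (NCBI gene 625249), the selenoenzyme that reduces lipid peroxides in membranes, had 312.8 and 252.5 CPM in control, 283.3 and 283.5 in PQ, and 251.5 and 257.6 in NAC. The control libraries spanned nearly the whole range of the other groups. Its log2 fold change was 0.004 in PQ (95% interval -0.21 to 0.22) and -0.15 in NAC (-0.36 to 0.06), both against control. PQ minus control was -0.14 within the Illumina-labelled pair and 0.17 within the BGISEQ-500 pair, of opposite sign. On the FPKM scale Gpx4 was 3.61 and 2.93 times Gpx1 in control, 2.44 and 2.63 times in PQ, and 5.12 and 5.79 times in NAC.

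Gpx8 (NCBI gene 69590), a peroxidase of the endoplasmic reticulum membrane, had 58.5 and 45.9 CPM in control, 50.8 and 58.9 in PQ, and 40.7 and 39.6 in NAC. The NAC libraries lay below the other 4, and control and PQ overlapped. PQ minus control was -0.2 within the Illumina-labelled pair and 0.36 within the BGISEQ-500 pair, of opposite sign. The fall in NAC against control was -0.38 on the log2 scale (SE 0.13, adjusted p = 0.042 by edgeR's quasi-likelihood test). This call depended on the fit and was lost in 7 of 13 alternatives, with adjusted p from 0.0029 to 0.38, and the value was -0.19 without control replicate 1. The call was also lost without NAC replicate 1 (-0.40, adjusted p = 0.13), without NAC replicate 2 (-0.36, adjusted p = 0.18) and with platform as a covariate (-0.34, adjusted p = 0.13). In PQ against NAC it was 0.45 (SE 0.12, adjusted p = 0.0098 by edgeR), lost without PQ replicate 2 (0.34, adjusted p = 0.13) or without NAC replicate 2 (0.43, adjusted p = 0.064), in a range of 0.0014 to 0.13 over the alternatives.

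Ggt7 (NCBI gene 207182) belongs to the gamma-glutamyltransferase family, whose active enzymes break glutathione down outside the cell. It had 13.3 and 12.7 CPM in control, 14.3 and 10.4 in PQ, and 6.13 and 7.24 in NAC. The NAC libraries lay far below the other 4, while control and PQ overlapped. Ggt7 fell in NAC against control by a log2 fold change of -0.96 (SE 0.20, adjusted p = 0.0016 by edgeR's quasi-likelihood test), to 0.51 of the control level. PQ against control gave -0.07 (95% interval -0.45 to 0.31). In PQ against NAC it was 0.90 (SE 0.20, adjusted p = 0.0017 by edgeR), lost without PQ replicate 1 (0.65, adjusted p = 0.06, in a range of 2.9e-05 to 0.06). NAC minus control was -0.91 within BGISEQ-500. PQ minus control was 0.1 within the Illumina-labelled pair and -0.28 within the BGISEQ-500 pair, of opposite sign.

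Glrx (NCBI gene 93692), which removes glutathione from protein thiols, had 34.2 and 36.7 CPM in control, 35.9 and 37.4 in PQ, and 28.7 and 31.6 in NAC. The NAC libraries were the lowest, and control and PQ overlapped. No comparison was called, with log2 fold changes of 0.05 in PQ (95% interval -0.20 to 0.29) and -0.23 in NAC (-0.48 to 0.02) against control, and 0.28 in PQ against NAC (0.03 to 0.53).

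The genes whose profiles lay nearest to 3 of the members were found from the Euclidean distance of centred log2 CPM over the 6 libraries. For Slc7a11 these were Bcl6 (0.038), Olfr613 (0.07), Ints11 (0.078), Dym (0.08) and Slc9a3r1 (0.081), beside a median distance of 0.51 over all genes tested. Among the nearest to Gclc were Ndufb6 (0.075), Fam114a2 (0.114), Cast (0.126) and Pik3cb (0.126), with a median of 0.80. Nearest to Gclm were Vps36 (0.092), Mef2c (0.096), Arpc2 (0.097), Ascc3 (0.099) and Riok3 (0.1), with a median of 0.62. Gclm itself was at rank 238 from Gclc (0.312) and at rank 4219 from Slc7a11 (0.427).

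The counts called in the lists below were also taken under the 13 alternatives, a step chosen after the data had been seen. Of 9 tested genes beside Slc7a11 that supply cystine, cysteine and glutamate, 5 were lower and 0 higher in PQ against control (median log2 fold change -0.48, 4 to 5 called), and 5 were lower and 2 higher in NAC against control (median -0.71, 5 to 7 called), while 9.45% and 9.64% of all genes were called lower. The 2 higher in NAC were Slc1a2 (0.65, adjusted p = 0.0002 by edgeR) and Slc1a3 (0.29, adjusted p = 0.034), whose call was lost in 6 of 13 alternatives (adjusted p up to 0.25). Between PQ and NAC, 1 was higher and 3 lower in PQ (median 0.02, 2 to 4 called, 2 without PQ replicate 1), beside 31.6% of all genes called. Cth, the cystathionine lyase that makes cysteine, had 8.02 and 2.53 CPM in control, 1.05 and 1.67 in PQ, and 0.557 and 0.794 in NAC. Control replicate 1 stood apart for Cth, and PQ minus control was -2.72 within the Illumina-labelled pair and -0.54 within the BGISEQ-500 pair. Its call in PQ against control was lost without control replicate 1 (-0.9, adjusted p = 0.25) and in 3 other alternatives. Slc1a4, a neutral amino acid carrier, fell in PQ by -1.28 on the log2 scale (SE 0.12, adjusted p = 1.4e-06 by edgeR's quasi-likelihood test). Slc1a3, a glutamate carrier, was -0.77 in PQ against NAC (adjusted p = 5.9e-06), and Got1, an aspartate aminotransferase, 0.70 (adjusted p = 0.00032).

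Among 4 tested genes of glutathione breakdown, 1 was lower in PQ and 2 in NAC against control, and 2 were higher in PQ than in NAC, with medians of -0.02, -0.38 and 0.36. Over all genes 19.2%, 18.7% and 31.6% were called in these comparisons. The calls in NAC were 1 without control replicate 1 or NAC replicate 2, and those in PQ against NAC were 1 without PQ replicate 1, NAC replicate 1 or NAC replicate 2. Chac1, which cleaves glutathione in the cytosol and is an ATF4 target, had 54.9 and 32.4 CPM in control, 7.83 and 7.21 in PQ, and 3.34 and 4.07 in NAC. The 3 groups did not overlap, and the control libraries differed from each other. Its log2 fold change against control was -2.53 in PQ (SE 0.21, adjusted p = 5.1e-07 by edgeR's quasi-likelihood test) and -3.56 in NAC (SE 0.24, adjusted p = 1.5e-08). Within platform, PQ minus control was -2.78 for the Illumina-labelled pair and -2.14 for the BGISEQ-500 pair.

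The 6 genes of the ATF4 pathway, which also hold Chac1, were all lower in PQ and all lower in NAC against control, with medians of -1.20 and -1.76, where 9.45% and 9.64% of all genes were lower. In PQ 4 to 6 were called over the alternatives, with 4 by DESeq2, by limma and without control replicate 1, and in NAC 6 were called in each. Relative to NAC, 4 of 6 were higher in PQ (median 0.79, 2 to 5 called, 2 without PQ replicate 1 or NAC replicate 1), as were 16.0% of all genes. Atf4 itself had 493.4 and 335.3 CPM in control, 228.0 and 221.9 in PQ, and 175.1 and 187.9 in NAC. Trib3, a pseudokinase induced by ATF4, fell by -2.06 in PQ and -2.84 in NAC on the log2 scale (adjusted p = 9.2e-06 and 3.1e-07 by edgeR's quasi-likelihood test). Its control libraries lay apart, at 82.3 and 39.9 CPM. Over the alternatives the Trib3 values ran from -2.49 to -1.45 in PQ and from -3.27 to -2.23 in NAC. Within platform, PQ minus control for Trib3 was -2.4 in the Illumina-labelled pair and -1.52 in the BGISEQ-500 pair. The summed FPKM of the list was 608.3 and 376.8 for control, 234.5 and 230.2 in PQ, and 169.2 and 175.3 in NAC, so control replicate 1 was the highest. The part of that library in the differences was not tested beyond the within-platform values and the fit without it, where Atf4 was -0.58 in PQ against control. Within platform Atf4 was -1.11 in the Illumina-labelled pair and -0.60 in the BGISEQ-500 pair.

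**Figure D4:**
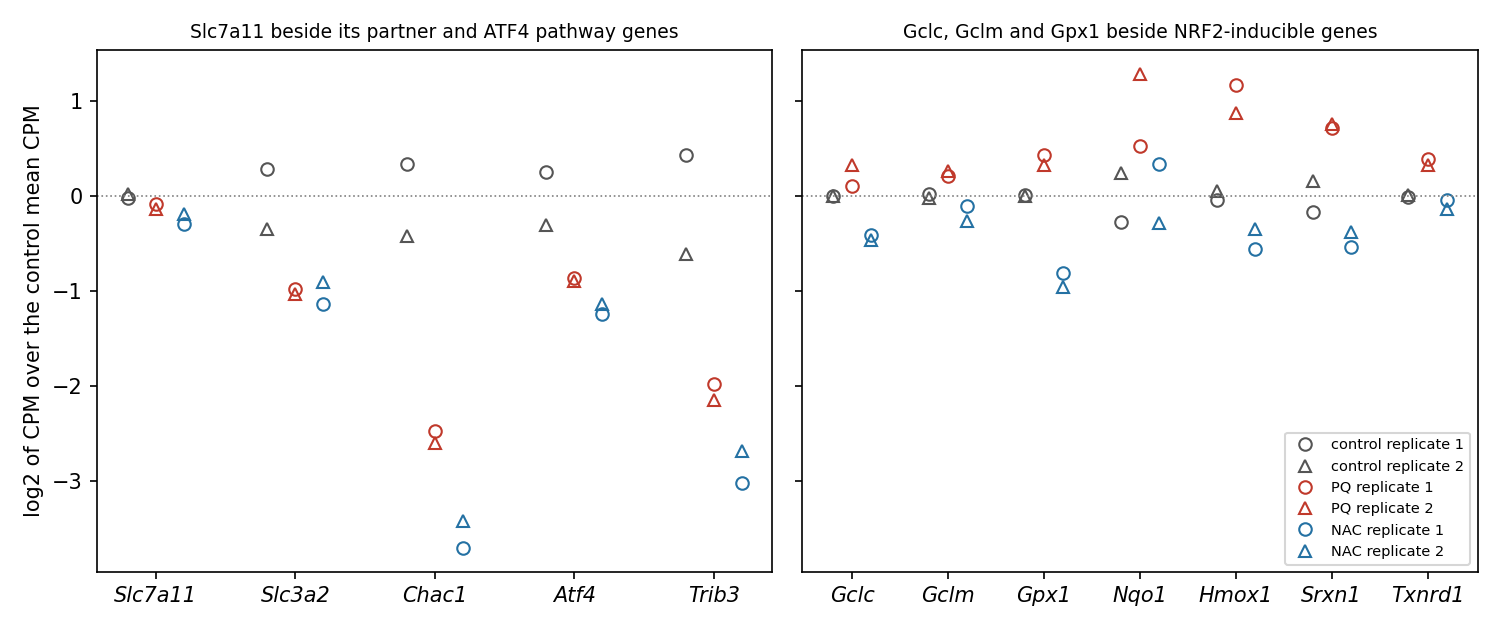
Log2 of the CPM in each library over the control mean, for Slc7a11 beside its partner gene and ATF4 pathway genes (left) and for Gclc, Gclm and Gpx1 beside NRF2-inducible genes (right). Slc3a2, Chac1, Atf4 and Trib3 lie below control in all PQ and NAC libraries while Slc7a11 lies much nearer to 0, and Hmox1 and Srxn1 lie above control in PQ and below it in NAC.

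Of 8 NRF2 regulators and inducible enzymes, 4 were higher and 0 lower in PQ against control (median 0.39), 1 was higher and 2 lower in NAC against control (median -0.08), and 5 were higher in PQ than in NAC (median 0.38). The shares of all genes called were 19.2%, 18.7% and 31.6%, with 9.76% higher in PQ against control. Over the alternatives 3 to 5 were called in PQ, 0 to 3 in NAC (0 without NAC replicate 1) and 3 to 5 in PQ against NAC (3 without PQ replicate 2 or NAC replicate 2). Hmox1, the heme oxygenase, had 61.9 and 66.3 CPM in control, 143.5 and 117.1 in PQ, and 43.5 and 50.2 in NAC. The groups did not overlap, and Hmox1 was higher in PQ by 1.02 (SE 0.11, adjusted p = 7.3e-06 by edgeR's quasi-likelihood test). Srxn1, the sulfiredoxin, rose by 0.73 in PQ (SE 0.11, adjusted p = 0.00022) against control. Txnrd1, the cytosolic thioredoxin reductase, was 0.45 higher in PQ than in NAC (adjusted p = 0.00092). Nqo1 had 2.19 and 3.13 CPM in control, 3.82 and 6.47 in PQ, and 3.34 and 2.18 in NAC, and PQ against control was on the edge of the threshold (0.94, adjusted p = 0.053). It was called in 4 of 13 alternatives, among them platform as a covariate (0.94, adjusted p = 0.031), with values from 0.52 to 1.28 and adjusted p from 0.011 to 0.45. Nfe2l2, which encodes NRF2, gave 0.16 in PQ (adjusted p = 0.24), and Keap1, its inhibitor, -0.10 (adjusted p = 0.58), both against control. In PQ against NAC Nfe2l2 was 0.32 (adjusted p = 0.011 by edgeR), a call lost in 5 of 13 alternatives. The list mixes regulators with enzymes, and the gene higher in NAC was a regulator, Bach1. Bach1 was 0.42 in PQ and 0.42 in NAC against control (adjusted p = 0.011 in each by edgeR).

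Of 8 NADPH-supplying genes, 3 were higher and 2 lower in PQ, 0 higher and 4 lower in NAC against control, and 5 were higher in PQ than in NAC, with medians of 0.07, -0.22 and 0.29, where 19.2%, 18.7% and 31.6% of all genes were called. Without PQ replicate 1, 1 rather than 5 was called in PQ against control and 2 rather than 5 in PQ against NAC, and NAC against control held 3 to 4 calls over the alternatives. G6pdx, the entry enzyme of the pentose phosphate pathway, had 175.2 and 190.3 CPM in control, 223.6 and 231.9 in PQ, and 125.7 and 125.2 in NAC. Its groups did not overlap, with log2 fold changes of 0.32 in PQ and -0.54 in NAC against control (adjusted p = 0.021 and 0.00035 by edgeR's quasi-likelihood test). The call in PQ was lost without control replicate 1 (0.26), PQ replicate 1 (0.34) or PQ replicate 2 (0.29), with adjusted p from 0.015 to 0.14 over the alternatives. Idh2, the mitochondrial isocitrate dehydrogenase, fell in both, by -0.42 and -0.68 (adjusted p = 0.0025 and 2.2e-05). Tkt was -0.61 in NAC (adjusted p = 9.2e-05) and Taldo1 0.51 in PQ against NAC (adjusted p = 0.00033).

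Of 7 other peroxidases and glutaredoxins that use glutathione, 1 was higher in PQ, 1 higher in NAC and 2 higher in PQ than in NAC, with medians of 0.06, 0.03 and 0.04, beside 19.2%, 18.7% and 31.6% of all genes called. Over the alternatives 1 to 2 were called in PQ, 1 in NAC and 0 to 2 in PQ against NAC (0 without PQ replicate 2 or NAC replicate 2). Mgst1, a membrane glutathione transferase with peroxidase activity, had 35.1 and 29.2 CPM in control, 63.9 and 65.2 in PQ, and 49.9 and 53.3 in NAC, so both treated groups lay above control. It rose by 1.01 in PQ and 0.68 in NAC on the log2 scale (adjusted p = 9e-06 and 0.00031 by edgeR's quasi-likelihood test). Gpx3 had at most 1.82 CPM in any library and was not called.

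Of 7 glutathione transport genes, 0 were called in PQ by edgeR (0 at an unadjusted p under 0.05, 0 by DESeq2), 2 were lower in NAC against control and 2 were higher in PQ than in NAC, with medians of -0.01, -0.16 and 0.14, and 19.2%, 18.7% and 31.6% of all genes were called. Both counts of 2 fell to 1 in some alternatives, including without NAC replicate 1 for each, without control replicate 1 for NAC and without PQ replicate 1 for PQ against NAC. Abcc1, an exporter of glutathione and its conjugates, fell in NAC by -0.87 (SE 0.12, adjusted p = 2.3e-05 by edgeR's quasi-likelihood test), from 60.0 and 68.5 CPM to 33.7 and 36.4. Of 6 genes that use glutathione to detoxify aldehydes and sulfide, 1 was higher in PQ, 1 lower in NAC, and 1 higher and 1 lower in PQ against NAC, with medians of -0.03, -0.09 and 0.07, beside the same shares of all genes. The last count fell from 2 to 1 without PQ replicate 1, PQ replicate 2 or NAC replicate 1 and in 3 other alternatives. Esd, the S-formylglutathione hydrolase, had 107.0 and 103.9 CPM in control, 162.2 and 171.3 in PQ, and 60.9 and 64.9 in NAC. Its order of groups was that of Gpx1, and it was 1.41 in PQ against NAC on the log2 scale (adjusted p = 8.3e-09).

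GPX1 and GPX4 contain selenocysteine, and of 7 genes of its incorporation 2 were lower in PQ, 1 higher and 1 lower in NAC, and 1 higher and 3 lower in PQ against NAC, with medians of -0.10, 0.14 and -0.14, while 19.2%, 18.7% and 31.6% of all genes were called. Over the alternatives 1 to 3 were called in PQ (1 without PQ replicate 1 or 2), 0 to 3 in NAC (0 without NAC replicate 1 or with platform as a covariate) and 2 to 4 in PQ against NAC (2 without PQ replicate 2, NAC replicate 1 or NAC replicate 2). Sephs1 was -0.80 in PQ against NAC (adjusted p = 1e-05 by edgeR's quasi-likelihood test). Of 5 genes that limit or feed lipid peroxides beside GPX4, 0 were called in PQ by edgeR (1 at an unadjusted p under 0.05, 0 by DESeq2), 2 were lower in NAC and 3 were higher in PQ than in NAC, with medians of 0.10, -0.51 and 0.59, beside the same shares of all genes. Over the alternatives 0 to 1 were called in PQ, 1 to 3 in NAC and 2 to 3 in PQ against NAC, which held 2 without either PQ library or either NAC library. Acsl4, which loads polyunsaturated fatty acids into lipids, had 367.0 and 316.3 CPM in control, 357.3 and 400.5 in PQ, and 219.2 and 186.2 in NAC. It was -0.75 in NAC against control (adjusted p = 4.6e-05). The other gene lower in NAC was Gch1 (-1.11, adjusted p = 0.035 by edgeR), a call lost in 5 of 13 alternatives. Because the list mixes genes that limit lipid peroxides with genes that feed them, its counts and medians have no single direction.

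The labelled cell type was checked against markers. Summed FPKM of 8 neural stem and progenitor markers was 3402.5 and 3456.0 in control, 3722.6 and 3778.3 in PQ, and 2686.4 and 2602.0 in NAC, with Vim the most abundant (mean 2073.37). Of these, 1 was higher and 3 lower in PQ, and 1 higher and 3 lower in NAC, against control, and 2 were higher and 4 lower in PQ against NAC. The shares of all genes called, for these and the markers below, were 19.2%, 18.7% and 31.6%. The 4, 4 and 6 progenitor marker calls became 2 without PQ replicate 1 or 2, 1 without NAC replicate 1 or 2 or with platform as a covariate, and 5 at the fewest. Vim was -0.75 in NAC (adjusted p = 3.8e-06 by edgeR's quasi-likelihood test). The oligodendrocyte lineage markers summed to 651.7 and 753.3 in control, 768.0 and 666.5 in PQ, and 816.1 and 925.6 in NAC, led by Olig1 (mean 429.31), with Mog at 0 and Sox10 at or under 0.04 in every library. Of 4 tested, 0 were called in PQ by edgeR (1 at an unadjusted p under 0.05, 0 by DESeq2) and 3 were higher in NAC against control, and 2 were lower in PQ against NAC. The 3 calls in NAC became 0 without control replicate 1 or NAC replicate 2 and with platform as a covariate, and the 2 became 1 without PQ replicate 2, NAC replicate 1 or NAC replicate 2. The 5 astrocyte markers summed to 4.4 and 4.6 in control, 6.8 and 6.0 in PQ, and 9.6 and 9.5 in NAC, led by Gfap (mean 2.79), with 1 of 4 tested higher in PQ (Aldh1l1) and 2 higher in NAC, where Aqp4 rose by 1.76 (adjusted p = 1.4e-05) and Gfap by 1.23 (adjusted p = 0.00031). The call in PQ was lost without PQ replicate 1, and Aqp4 was 1.05 by limma on log2(FPKM + 1). Relative to NAC, 1 of the 4 was higher and 2 were lower in PQ. The neuron markers summed to 38.2 and 35.9 in control, 33.7 and 34.9 in PQ, and 65.3 and 58.6 in NAC, nearly all from Map2, with Rbfox3 at 0, and Map2, the one tested, was 0.77 in NAC (adjusted p = 1.1e-05). Tubb3, below the FPKM minimum, went the other way, with 2.38 and 1.3 FPKM in control, 0.72 and 0.47 in PQ, and 0.32 and 0.44 in NAC. Syt1, also below the FPKM minimum and not tested, was 0.17 and 0.23 in control, 0.26 and 0.26 in PQ, and 0.06 and 0.11 in NAC. These Syt1 values are too low to read a direction from. Microglia and blood cell markers summed to at most 1.2 and endothelial and pericyte markers to at most 0.6 in any library. These markers moved with the NAC group as Gclc, Gpx1, Gpx8 and Ggt7 did, and their part in those differences was not tested.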

How the data were processed

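RNA was sequenced from 6 libraries of NSPCs, 2 per group. The tables the authors deposited give each gene an expected count, which can be fractional, and an FPKM, in which the authors corrected for transcript length and sequencing depth. The submitters' processing notes name TopHat2 2.0.11 and Cufflinks 2.1.1 with mm9 for control replicate 1 and PQ replicate 1, and HISAT2 2.0.4, Bowtie2 2.2.5 and RSEM with mm10 for the other 4 libraries. All tables have columns of the RSEM type, so the pipeline behind the first 2 is unclear. The named pipeline follows the labelled platform, so the 2 cannot be told apart in the within-platform values or the platform covariate. Whether strand was used in counting is not given in the sources used here. Symbols came from the RefSeq gene table of GRCm38.p6 (99.7% of identifiers matched), and promoter windows from RefSeq on the same build. Genes missing from a library's table were taken as 0.

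Expected counts were rounded and tested with edgeR 4.0.16 in R 4.3.3 (TMM, glmQLFit and glmQLFTest, all 6 libraries, no covariate) where FPKM averaged 1 or more, and p-values were adjusted by Benjamini-Hochberg (threshold 0.05). The F statistic of each fold change gave its standard error and 95% interval. Within-platform values are differences of mean log2 CPM with a prior count of 2. Depth ranged from 9680436 to 10698241 expected counts. Scripts were tested on simulated counts. Alternatives were DESeq2 size factors, DESeq2 1.42.0, platform as a covariate, no filter, fits restricted to the 4 libraries of a comparison, limma 3.58.1 on log2(FPKM + 1) and log2(FPKM + 0.1), and leaving out each library. Beside the 10 members, the genes named are the 2 called genes with the largest change of each list and comparison, a set of glutathione, NRF2 and ATF4 genes, and the 5 nearest profiles. Some genes that this rule names are not reported here. Of the others, the values printed were picked after they had been seen, as were the motifs and the genes Slc1a2, Bach1, Tubb3 and Syt1. The members and lists were chosen with earlier results of these data known.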

Additional observations from a re-analysis of the deposited data

How the results depend on the processing

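The 30 log2 fold changes of the 10 genes were recomputed under 13 alternatives, giving 390 values. Of these, 364 kept their direction and their side of the threshold, 12 lost the call, 2 gained it and 12 changed sign. The falls of Gclc, Gpx1 and Ggt7 in NAC against control and the differences of Gclc and Gpx1 between PQ and NAC were called under all 13. No value that changed sign had been called. In PQ against control the sign changed for Gpx4 with no filter (-8e-05), and when a library was left out for Gss (range -0.24 to 0.04), Gpx4 (-0.14 to 0.17), Gpx8 (-0.09 to 0.26), Ggt7 (-0.32 to 0.14) and Glrx (-0.002 to 0.1). In NAC against control the values of Gpx4 with a library left out ranged from -0.3 to 0.01. Between PQ and NAC the sign changed for Gss with platform as a covariate (-0.02) and over the left-out libraries (-0.09 to 0.19), and for Gsr (-0.04 to 0.11). Leaving out each library, the called genes among the 10 ranged from 0 to 1 in PQ against control, 3 to 4 in NAC against control and 3 to 5 in PQ against NAC. Over all genes the ranges were 866 to 2206, 1286 to 2126 and 2343 to 4207. A group left with 1 library is assumed to vary like the others, and the cause of these changes was not tested. The labels carry no replicate numbers, so no fit paired by replicate was made. The labelled platform, which pairs control and PQ libraries, entered as a covariate: 1, 3 and 5 of the 10 genes and 2067, 1689 and 2903 of all genes were then called in PQ against control, NAC against control and PQ against NAC. The printed intervals give the precision that 2 libraries a group allow.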
